A study of Mus musculus with 6 samples.

Results

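The guidance families described here are plexins, semaphorins, neuropilins, SLIT ligands and ROBO receptors, netrins and their receptors, and ephrins with their EPH receptors. Members were chosen by gene name from the deposited table of mouse ovary expression, and 69 of its 16454 genes belong to them. The families were brought together around Plxna2, which had been selected on its difference between the study's lineages in these same values. Every lineage difference of a member is therefore given as a description and supports nothing further. RefSeq's annotation of GRCm38.p6 holds 72 protein-coding genes with such names. The remaining 3, Efna3, Plxnb3 and Sema4f, were not analysed here.

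All ovaries came from CD1 mice, an outbred stock, at postnatal day 21 in generation 3 of their lineage. The dams that founded the DEHP lineage were dosed with the plasticizer di(2-ethylhexyl) phthalate (DEHP) at 20 µg/kg/day. Dams founding the control lineage were given the vehicle, an oil. The mice measured descend from these dams. Each lineage is represented by 3 whole ovaries, sequenced singly as polyadenylated RNA. The labels do not say how many founders or litters stand behind the 3, so that the spread between ovaries may not include the spread between founders.

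Plexins are transmembrane receptors that lower cell adhesion and remodel the cytoskeleton when a semaphorin binds them. Secreted class 3 semaphorins mostly reach class A plexins through the coreceptors neuropilin 1 and neuropilin 2, which also bind VEGF. Membrane-bound semaphorins bind plexins directly. SLIT proteins act on ROBO receptors, netrins on DCC, neogenin and the UNC5 receptors, and ephrins on EPH receptor kinases. These systems were named for steering axons, and in other organs they guide endothelial cells, position cell layers and set tissue boundaries.

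Plexins of class A have similar coding sequences, so the first question is whether short reads can tell Plxna2 from its relatives. Among 2634 stretches of 101 bases, the length of the reads, within single coding exons of Plxna2, the one below was closest to another class A plexin. It lies in exon 30 of 32 on the plus strand of GRCm38, at chr1:194810150-194810250. The best-matching stretch of each relative is at chr6:89320881-89320981 for Plxna1, at chrX:74341624-74341724 for Plxna3 and at chr6:32157856-32157956 for Plxna4. Capitals mark bases that differ from Plxna2.
Plxna2: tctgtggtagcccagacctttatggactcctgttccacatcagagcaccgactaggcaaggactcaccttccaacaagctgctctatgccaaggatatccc
Plxna1: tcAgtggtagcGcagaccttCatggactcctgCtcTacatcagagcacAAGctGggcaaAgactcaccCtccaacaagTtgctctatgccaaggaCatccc
Plxna3: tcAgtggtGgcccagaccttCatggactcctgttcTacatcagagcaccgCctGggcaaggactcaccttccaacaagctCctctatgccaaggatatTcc
Plxna4: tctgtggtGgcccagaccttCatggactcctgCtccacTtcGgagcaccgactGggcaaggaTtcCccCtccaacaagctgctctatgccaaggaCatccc
Even here Plxna3 differed at 8 of the 101 bases, Plxna4 at 10 and Plxna1 at 13. The closest relative differed at a median of 33 bases over all the stretches searched. Of the words of 31 bases in the GENCODE transcripts of Plxna2, 0 occurred in those of the other class A plexins, and 2.76% occurred in any other gene.

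The 250 bases before the listed promoter start of Plxna2, at chr1:194619579-194619828 on the plus strand, are shown because this was the member called lower. They come from RefSeq's GRCm38.p6 promoters, with CpG sites in capitals. RefSeq's position of the gene begins at 194619791, so the last bases of the stretch lie within the gene by that position.
Plxna2: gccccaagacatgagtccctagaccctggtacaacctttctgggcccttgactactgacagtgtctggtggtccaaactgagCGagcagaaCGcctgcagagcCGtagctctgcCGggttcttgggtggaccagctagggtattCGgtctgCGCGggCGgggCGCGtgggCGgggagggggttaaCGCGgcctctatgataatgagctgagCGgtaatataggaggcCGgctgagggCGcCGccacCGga
This stretch holds 18 CpG sites and is 62.8% G or C. More CpG sites were found in 35.1% of the 12482 genes of the table with a listed start. The 57 members with a listed start had a median of 16 CpG sites and those 12482 genes one of 14, in the first start listed. The letters GGGCGG, searched on both strands, occurred in 43 of the 57 members (75.4%), Plxna2 included, and in 55.3% of the 12482 genes. TATAAA occurred in 2 members (3.51%), not in Plxna2, and in 6.91% of the genes.

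Expression is given as CPM, reads scaled to a common library total. The authors deposited log2 CPM from which a surrogate variable, an estimated nuisance direction across samples, had been removed according to the table's name. The within-lineage deviations of the 6 ovaries filled 3 directions in place of 4, and the emptied direction weighed most on DEHP replicates 1 and 3 (-0.60 and 0.75). These 2 ovaries had a correlation of 0.998 across genes, which was not set against other pairs of ovaries. SDs, above all in the DEHP lineage, leave out the spread along the emptied direction. Summed CPM ranged from 979868 to 1026740 per ovary, and how many reads each library had is unknown. Granulosa markers summed to 6191 to 7853 CPM and oocyte markers to 1014 to 1424 CPM per ovary.

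Plxna2 (Entrez 18845, chromosome 1, 194619791 to 194816869) encodes plexin A2, a receptor for the membrane semaphorins 6A and 6B and, with neuropilins, for class 3 semaphorins. It was at 359, 292 and 324 CPM in control replicates 1 to 3 and at 171, 175 and 178 CPM in DEHP ovaries. The lineages did not overlap, and the highest DEHP ovary lay well below the lowest control ovary. Means were 325 ± 33.5 and 175 ± 3.76 CPM (SD, n = 3 each), and the log2 difference was -0.89 (SE 0.092). Plxna2 fell at an adjusted p of 0.0451 in limma over all genes (Benjamini-Hochberg, two-sided, threshold 0.05). It had been picked on this difference in these same values, so this p-value is no independent test. It was the only one of the 69 members past that threshold, which 0.0425% of all genes passed. Without the removed direction as a covariate, 1 member and 0.122% of all genes passed. With 1 ovary left out no emptied direction remained, so those fits had no covariate. Without the covariate all 6 ovaries gave a limma adjusted p of 0.0233. The call was lost without control replicate 3 (adjusted p 0.105), DEHP replicate 1 (0.086) or DEHP replicate 3 (0.079), at log2 differences of -0.89, -0.87 and -0.90. Over 15 alternatives the adjusted p ranged from 0.0233 to 0.342. In the authors' deposited table the log2 fold change of Plxna2 was -0.89 with an adjusted p of 0.0748.

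The other class A plexins had smaller differences, and none passed. Plxna1, a receptor shared by class 3 and class 6 semaphorins, was at 206, 274 and 245 CPM in control ovaries and at 272, 239 and 250 CPM in DEHP ovaries, with overlap. Plxna3, which with neuropilin 2 receives semaphorin 3F, was at 28.2, 35.6 and 36.3 CPM against 40.5, 52.9 and 40.2 CPM. All 3 DEHP ovaries were above the controls, and the log2 difference of 0.41 (SE 0.15) did not pass. Plxna4, the other receptor of semaphorins 6A and 6B, was at 26.1, 28.1 and 27.9 CPM against 26, 25.2 and 25.4 CPM, close together but without overlap (log2 difference -0.10). Reads of Plxna1 can overlap the opposite-strand gene Gm26811 over 970 bases, 10.7% of its exon bases, and whether the counting used strand is not stated in the sources used. Plxna2 had no exon base shared with an annotated opposite-strand gene (0%).

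**Figure D1:**
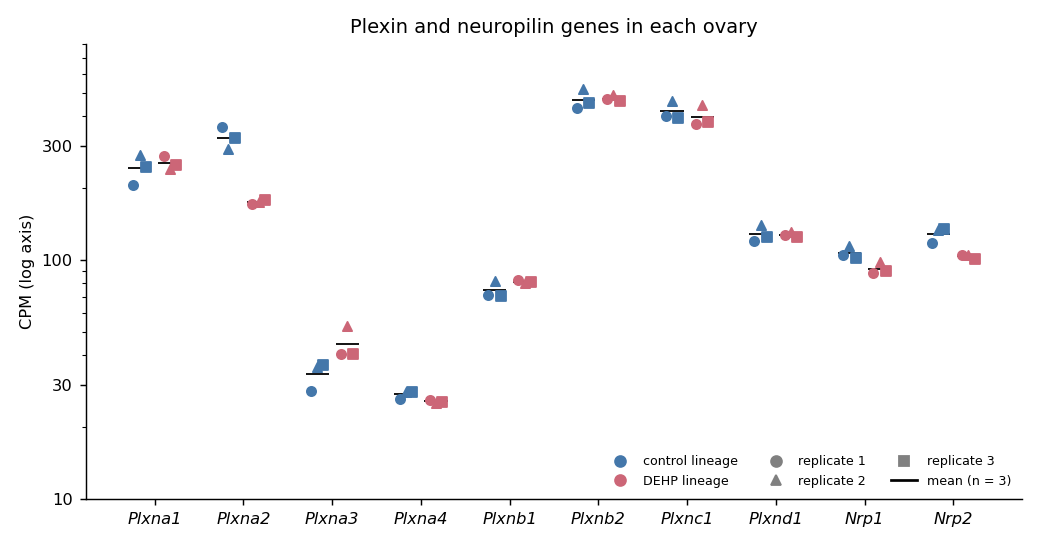
Each point is 1 ovary (shape: replicate; colour: lineage) and each black line the mean of 3, on a log axis of CPM. Plxna2 is at 292 to 359 CPM in control ovaries and 171 to 178 CPM in DEHP ovaries, while Plxnb2, Plxnc1 and Plxnd1 overlap between lineages.

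Levels of different genes were compared as CPM per kb of merged exons. Plxna2 stood at 20.9, 17 and 18.9 CPM per kb in the control ovaries, below Plxna1 at 22.8, 30.2 and 27.1. It stood at 9.94, 10.2 and 10.4 in the DEHP ovaries, where Plxna1 was at 30, 26.4 and 27.7. The order of this pair in the control ovaries depended on the length used: per kb of the longest transcript Plxna2 was at 32.5, 26.4 and 29.4 and Plxna1 at 22.8, 30.3 and 27.1. In the DEHP ovaries Plxna2 was below Plxna1 by either length. Of the class A sum per kb, Plxna2 made up 36.7 ± 5.52% in control ovaries and 22.3 ± 1.00% in DEHP ovaries (SD, n = 3 each). With the longest transcript as gene length these shares were 46.7% and 30.3%. The class A sum was 51.8 ± 2.42 and 45.7 ± 1.11 CPM per kb. Without Plxna2 it was 32.9 ± 4.34 and 35.5 ± 1.32 CPM per kb, and the lineages overlapped.

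**Figure D2:**
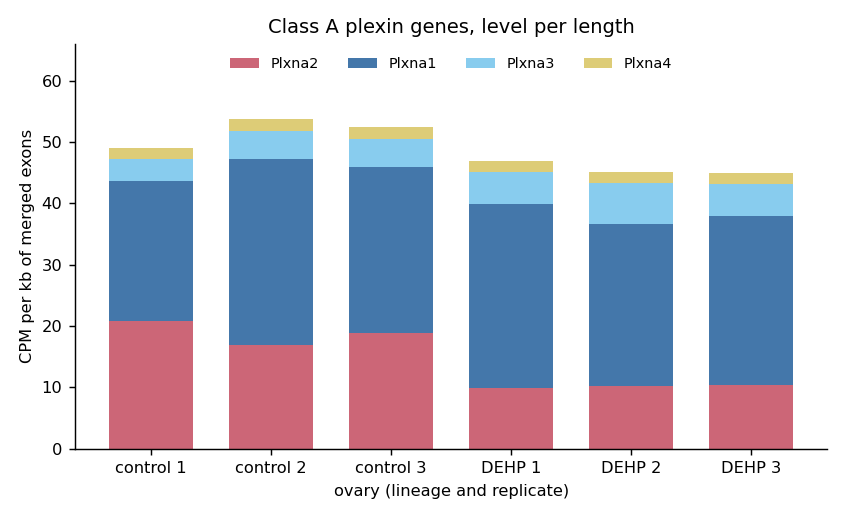
Stacked bars give the CPM per kb of merged exons of the 4 class A plexin genes in each of the 6 ovaries. The red part, Plxna2, spans 17 to 20.9 in control ovaries and 9.94 to 10.4 in DEHP ovaries, and the rest of the bar overlaps between lineages.

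Plexins of the other classes overlapped between lineages. Plxnb2, a receptor of class 4 semaphorins, was the highest plexin per length, at 60.9 CPM per kb over the 6 ovaries, and was at 467 ± 44.2 and 473 ± 13.4 CPM (SD, n = 3 each). Plxnc1, the plexin that binds semaphorin 7A, followed at 48.8 CPM per kb, with 418 ± 39.8 and 398 ± 42.4 CPM. Plxnd1, the endothelial receptor of semaphorin 3E, was at 128 ± 10.3 and 127 ± 3.06 CPM, and Plxnb1, the receptor of semaphorin 4D, at 74.7 ± 6.24 and 80.9 ± 1.13 CPM. None of these passed, with log2 differences from -0.07 for Plxnc1 to 0.12 for Plxnb1, and the direction of Plxnb2, Plxnc1, Plxnd1 and Plxna1 turned in at least 1 alternative. By merged exons the order was Plxnb2, Plxnc1, Plxna1, Plxnd1, Plxna2, Plxnb1, Plxna3 and Plxna4, and by the longest transcript Plxna2, at 22.6 CPM per kb, came before Plxnd1, at 18.5. In the control lineage alone Plxna2 and Plxnd1 were at 18.9 ± 1.95 and 17.6 ± 1.42 CPM per kb of merged exons, but at 29.4 ± 3.04 and 18.6 ± 1.5 per kb of the longest transcript (SD, n = 3 each). In the DEHP lineage Plxna2 lay below Plxnd1 by either length, at 10.2 ± 0.219 and 17.4 ± 0.42 or at 15.8 ± 0.341 and 18.4 ± 0.444.

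Plexin domain containing genes are transmembrane proteins with a plexin repeat that are not semaphorin receptors. Plxdc2 was among the highest members per length, at 71.6 CPM per kb (rank 2 by merged exons and 4 by the longest transcript), with 490 ± 60.8 CPM in control and 504 ± 12.1 CPM in DEHP ovaries (SD, n = 3 each). Plxdc1, first described in tumour endothelium, was at 19.8 ± 5.16 and 17.6 ± 0.783 CPM. Both overlapped between lineages and neither passed.

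Both neuropilins were lower in all 3 DEHP ovaries than in any control ovary, as were 12.2% of all genes, but neither passed the adjusted test. Nrp1 was at 105, 114 and 102 CPM in control ovaries and at 87.8, 98.3 and 89.4 CPM in DEHP ovaries, a log2 difference of -0.22 (SE 0.081). Nrp2 was at 118, 134 and 135 CPM against 104, 104 and 101 CPM, a log2 difference of -0.32 (SE 0.079, limma adjusted p 0.392). The gap in level between them depended on the length: Nrp1 and Nrp2 were at 10.2 and 9.81 CPM per kb of merged exons and at 27.3 and 17.3 per kb of the longest transcript. VEGF ligands and receptors, which share the neuropilins, had 0 of 8 measured genes called in either direction (limma), where 0.0425% of all genes were. An unadjusted p under 0.05 was found for 2 of the 8 and for 8.78% of all genes. The 3 smallest p of the 8 were those of Kdr, Vegfa and Vegfc. Kdr, the main VEGF receptor of blood endothelium, was at 65.2 ± 0.881 and 53.3 ± 3.53 CPM. The receptor gene Flt1 was at 25.6 ± 5.07 and 21.3 ± 2.13 CPM, with overlap. Flt4, also a receptor gene, was at 28.25 ± 1.19 and 30.5 ± 0.616 CPM, higher in every DEHP ovary than in any control ovary. The ligand gene Vegfa was at 78.3 ± 11.9 and 96.4 ± 3.54 CPM and Vegfc at 10.7 ± 0.198 and 12.6 ± 1.88 CPM.

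Marker genes of other cell types were summed beside these values. In bulk tissue, fewer cells of a type and less RNA per cell cannot be told apart. Of 13 marker lists, 3 had summed CPM that was lower in every DEHP ovary and 2 had sums that were higher, while 8 overlapped. Without the most abundant gene of each list, 3 of these 5 still had sums without overlap. Of all genes, 53.1% had a lower mean in the DEHP lineage. Smooth muscle markers, 7 of 8 with a lower mean, summed to 2163 to 2432 CPM in control and 1797 to 2038 in DEHP ovaries. Pericyte markers, 6 of 7 lower, summed to 384 to 438 and 352 to 376 CPM. Theca and interstitial markers, 7 of 7 lower, summed to 2783 to 3453 and 2586 to 2671 CPM, of which the steroid enzyme gene Hsd3b1 made up 77.4%. Without Hsd3b1 these sums overlapped, at 570 to 932 and 542 to 586 CPM. The sums of lymphatic endothelial markers were higher, with 0 of 5 lower, at 118 to 126 against 158 to 163 CPM. Granulosa markers, 4 of 8 lower, summed to 6191 to 6650 against 6743 to 7853 CPM, of which the inhibin gene Inha made up 66.7%. Without Inha the granulosa sums overlapped, at 2161 to 2376 and 2171 to 2336 CPM. Blood endothelial markers, Robo4 among them, 6 of 9 lower, overlapped, at 355 to 393 and 322 to 379 CPM. Oocyte markers also overlapped, with 8 of 9 lower, at 1099 to 1424 and 1014 to 1149 CPM. Erythroid markers, 0 of 5 lower, overlapped at 65.6 to 127 and 115 to 290 CPM. Adipocyte markers, 2 of 7 lower, overlapped at 61.1 to 230 and 47.5 to 502 CPM. In the remaining lists 4 of 8 macrophage, 5 of 7 Schwann and nerve, 3 of 7 stromal fibroblast and 4 of 8 surface epithelium markers were lower. In the 5 lists without overlap Insl3 alone had a mean under 1 CPM. By limma 0 markers of the 13 lists were called, where 0.0425% of all genes were. The part of these cell types in the values of Plxna2, Nrp1 and Nrp2 was not tested.

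Semaphorins are the ligands of plexins, and 19 of them were measured. Class 3 semaphorins are secreted, and Sema3g and Sema3c made up most of the class, at 43.3 and 31.9 CPM per kb. Sema3g, which acts through neuropilin 2, was at 196 ± 31.3 and 197 ± 5.2 CPM, and Sema3c at 246 ± 42.0 and 210 ± 34.6 CPM. Of the 7 genes of the class, 5 had a higher mean in the DEHP lineage and 0 passed. Of all genes, 53.1% had a lower mean and 0.0425% passed. Sema3b was at 22.7, 29.2 and 21.8 CPM against 31.2, 28.3 and 29.9 CPM. Sema3a, the founding repellent of the class, was at 5.52, 4.83 and 4.87 CPM against 6.75, 5.71 and 6.74 CPM, without overlap. Sema3e, the ligand of plexin D1, was at 12.1 and 11.7 CPM in DEHP replicates 1 and 3. In DEHP replicate 2 it was at 6.86 CPM, inside the control range of 5.43 to 8.57 CPM. The removed direction weighed most on replicates 1 and 3, so their closeness may not show agreement between ovaries.

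Class 4 semaphorins are membrane proteins. Sema4c, a ligand of plexin B2, was highest per length at 14.4 CPM per kb and was at 66.8 ± 11.8 and 65.8 ± 6.99 CPM. Sema4d, the ligand of plexin B1, was at 15.6, 12.3 and 17.8 CPM in control ovaries and at 20.3, 21.8 and 20.8 CPM in DEHP ovaries. All DEHP ovaries were above the controls, and the log2 difference of 0.48 (SE 0.154) did not pass (limma adjusted p 0.491). Sema4g was at 15.1 ± 4.08 and 18.1 ± 0.979 CPM, with overlap.

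Class 5 semaphorins carry thrombospondin repeats. Sema5a had the most reads of all members, at 929, 1122 and 762.5 CPM in control ovaries and 919, 1044 and 948.5 CPM in DEHP ovaries, with overlap, and was at 51.1 CPM per kb. Its relative Sema5b was scarce, at 7.72, 11.4 and 7.11 against 6.58, 5.63 and 6.17 CPM, without overlap (log2 difference -0.49, SE 0.218, not passed). Class 6 semaphorins include the direct ligands of plexin A2. Sema6a was at 16.4 ± 2.57 and 18 ± 0.288 CPM, Sema6b at 10.2 ± 2.97 and 10.1 ± 0.764 CPM, and Sema6d, a ligand of plexin A1, at 59.5 ± 13.8 and 54.4 ± 3.79 CPM. Each of these 3 ligands overlapped between lineages.

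Sema7a, the membrane-anchored ligand of plexin C1, was at 76.3 CPM per kb of merged exons, the highest of all members. Without control replicate 3 it was at 68.1, below Plxdc2 at 73.75, and by the longest transcript Sema5a was highest, at 88.3, with Sema7a at 76.4. It was at 175, 229 and 388 CPM in the control ovaries and at 278, 212 and 229 CPM in the DEHP ovaries. The control ovaries alone spanned the whole range, from lowest to highest.

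**Figure D3:**
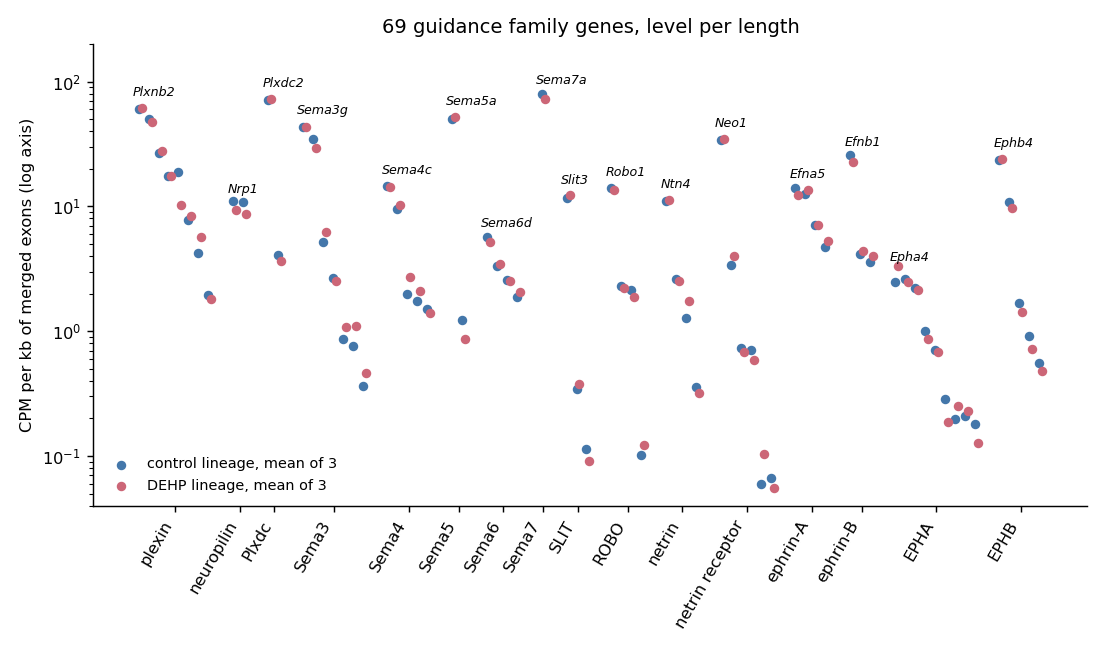
Points are CPM per kb of merged exons on a log axis, as the mean of 3 ovaries per lineage, with the genes of each family in order of level and the highest named. Sema7a, Plxdc2, Plxnb2 and Sema5a lead at 51.1 to 76.3 CPM per kb over all ovaries, and the lineages lie close together for most genes.

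Of the SLIT ligands, Slit3 made up 96.3% of the family sum per length. It was at 70.9 ± 2.29 CPM in control and 74.4 ± 13.2 CPM in DEHP ovaries, where replicate 2 (89.3 CPM) stood above replicates 1 and 3 (64.5 and 69.5). Slit2 was at 8.78 ± 3.05 and 9.68 ± 1.77 CPM, and Slit1 was below 1 CPM in all ovaries. Of the receptors, Robo1 was highest, at 13.8 CPM per kb, with 217, 262 and 216 CPM against 186, 283 and 198 CPM. DEHP replicate 2 again stood above the other DEHP ovaries. The removed direction weighed most on DEHP replicates 1 and 3, so their closeness may not show agreement between ovaries. The adipocyte gene Cfd was at 12.4, 217 and 30.2 CPM in DEHP replicates 1 to 3 and at 70.6, 23.1 and 18.1 in controls. Whether adipocyte content bears on Slit3 or Robo1 was not tested. Robo2 was at 36.0 ± 2.69 and 32.1 ± 0.607 CPM without overlap, and Robo4, a receptor of blood endothelium, at 12.3 ± 0.629 and 11.7 ± 0.614 CPM. In these 2 families 0 of 7 genes passed in limma, as did 0.0425% of all genes. An unadjusted p under 0.05 was found for 0 of the 7 and for 8.78% of all genes.

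Among netrins, secreted relatives of laminins, Ntn4 of basement membranes was highest, at 11.1 CPM per kb, and spread widely over the control ovaries (35.5, 56.7 and 30.7 CPM). Ntn1, the best known axon attractant, was at 9.52, 7.57 and 6.78 CPM in control ovaries and 9.91, 11.7 and 11.0 CPM in DEHP ovaries. The groups were adjacent but did not overlap, and the log2 difference of 0.46 (SE 0.177) did not pass. Ntn3 was at 13.5 ± 0.516 and 12.8 ± 1.05 CPM. Ntn5 shared 23.4% of its exon bases with the opposite-strand gene Sec1 and 20.5% of its words of 31 bases with it, so its level, at most 1.04 CPM, is uncertain. Neo1 (neogenin, a receptor of netrins and of RGM proteins) made up 86.8% of the receptor sum per length and was at 280, 320 and 298 against 299, 306 and 293 CPM. Dcc, the classical netrin receptor, was the lowest of all members per length, at 0.0609 CPM per kb. Of the UNC5 receptors, Unc5b, known from endothelial cells, was at 21.3 ± 4.03 and 25.2 ± 1.57 CPM and Unc5a at 2.95 ± 0.121 and 2.44 ± 0.437 CPM. Unc5d was at 0.469, 0.514 and 0.653 CPM against 1.05, 0.849 and 0.951 CPM, and its log2 difference of 0.81 (SE 0.326) did not pass. At such a level the log2 value leans on the authors' prior count, which is not known here.

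Ephrins are membrane ligands that signal in both directions with EPH receptor kinases on neighbouring cells. Efnb1 was the highest ligand, at 24.2 CPM per kb, and Ephb4, a receptor known from venous endothelium, the highest receptor, at 23.7. Ephb4 was at 104, 114 and 111 CPM against 109, 115 and 108 CPM. Its partner ligand Efnb2, of arterial endothelium, was at 28.6 ± 4.12 and 29.9 ± 2.32 CPM. Efnb1 was at 88.4 ± 10.2 and 79.0 ± 7.93 CPM and Efnb3 at 11.4 ± 1.38 and 12.7 ± 1.89 CPM. Of the ephrin-A ligands, which are anchored by a lipid, Efna5 was at 59.1, 55.3 and 56.8 CPM in control ovaries and 48.2, 52.1 and 49.6 CPM in DEHP ovaries. These groups did not overlap, and the log2 difference of -0.19 (SE 0.077) did not pass. Efna4 was at 7.61 ± 1.46 and 8.43 ± 0.359 CPM, and 10.5% of its exon bases are shared with an opposite-strand transcript.

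The EPHA receptors were low, and Epha4 reached 2.89 CPM per kb of merged exons. By the longest transcript Epha7 and Epha4 were close, at 3.73 and 3.67. Epha4 was at 15.4, 27.6 and 16.6 CPM in control ovaries and 25.0, 30.8 and 24.1 CPM in DEHP ovaries, where control replicate 2 lay among the DEHP ovaries. Epha2 was at 4.72 ± 0.833 and 4.04 ± 0.0913 CPM. Epha10, a receptor without an active kinase, was at 2.40, 1.95 and 1.85 CPM against 1.35, 1.26 and 1.41 CPM (log2 difference -0.62, SE 0.256, not passed). Of the EPHB receptors, Ephb2 was at 11.6 ± 2.75 and 9.14 ± 1.18 CPM and Ephb6, which also lacks kinase activity, at 41.2 ± 3.99 and 36.8 ± 3.39 CPM. Of the 14 EPH receptors 0 passed in limma, where 0.0425% of all genes did. An unadjusted p under 0.05 was found for 1 of the 14 and for 8.78% of all genes.

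**Figure D4:**
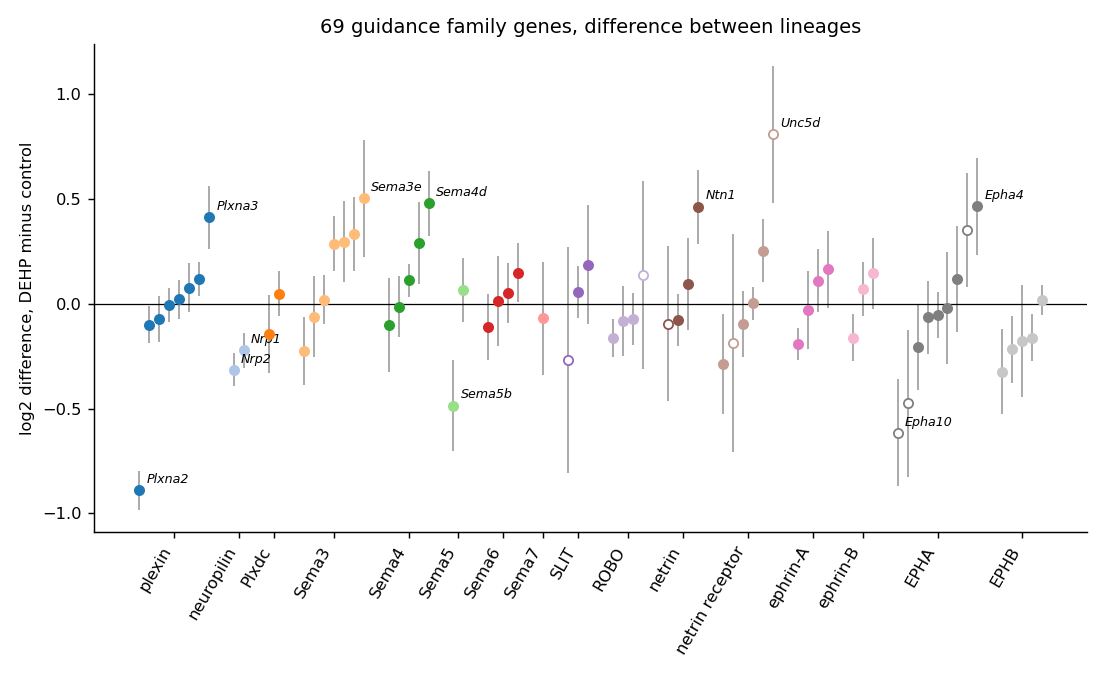
Each point is 1 of the 69 genes, placed by its log2 difference between lineages (DEHP minus control) with bars of 1 SE, and open points mark a mean log2 CPM under 1. Plxna2 lies lowest, at -0.89, and the open point of Unc5d highest, at 0.81.

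Over all 69 genes, 36 had a lower mean in the DEHP lineage (52.2%), as had 53.1% of all genes. The median log2 difference was -0.01 for the members and for all genes. The DEHP ovaries were all below the controls in 10 members (14.5%) and in 12.2% of all genes, and all above in 7 members (10.1%) and in 10.8% of all genes. An unadjusted p under 0.05 was found for 9 members (13%) and 8.78% of all genes. A difference of at least 0.5 in size was found in 4 members (5.80%) and 9.83% of all genes. Of the members, 0 had in the authors' deposited table an adjusted p under 0.05, where 3 of all 16454 genes had one. After Plxna2 the smallest among the members was 0.631.

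Genes that act with these families were taken from 4 lists. In limma 0 of the 109 measured were called in either direction, with or without the covariate. Of all genes, 0.0425% were called with it and 0.122% without it. An unadjusted p under 0.05 was found for 11 of the 109 (10.1%) and for 8.78% of all genes. The 3 genes named from each list had its smallest p and do not stand for the list. Median log2 differences were 0.002 for semaphorin and plexin effectors, -0.002 for SLIT and netrin effectors and -0.014 for EPH and ephrin effectors. Among semaphorin and plexin effectors, 18 of 36 had a lower mean. Dpysl5 and Dpysl2, collapsin response mediators that bind tubulin, were at 110 ± 12 and 140 ± 10.1 CPM and at 23.8 ± 3.41 and 30.2 ± 3.15 CPM. Mical2, an oxidase that acts on actin, was at 103 ± 13.1 and 83.9 ± 8.37 CPM. Among SLIT and netrin effectors, 19 of 37 were lower. Srgap3, a GTPase activator that binds ROBO, was at 21.1 ± 1.45 and 16.2 ± 1.66 CPM, Flrt1, of a family of UNC5 ligands, at 5.93 ± 1.05 and 8.85 ± 1.21 CPM, and Arhgap39, which binds ROBO in flies, at 39.6 ± 1.83 and 45.5 ± 0.608 CPM. Among EPH and ephrin effectors, 17 of 30 were lower. Ngef, the exchange factor ephexin, was at 9.27 ± 1.58 and 6.43 ± 0.113 CPM, Vav2, another exchange factor, at 31.1 ± 2.53 and 37.6 ± 3.65 CPM, and the adaptor Nck2 at 37.6 ± 1.15 and 41.6 ± 3.07 CPM. The authors' annotation places 61 of the members in the KEGG axon guidance pathway. Of the 106 other genes it places there, 0 were called in limma, where 0.0425% of all genes were. Of these 106, 10 (9.43%) had an unadjusted p under 0.05.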

How the data were processed

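The submitters' processing notes name edgeR 3.20.5 with R 3.4.3, the aligner STAR 2.5.3a, Subread 1.5.2 and its counter featureCounts, Trimmomatic 0.36 and build GRCm38.p6, and also bcl2fastq 2.17.1.14 and FastQC 0.11.5. How each was set is not given in the sources used. The authors deposited log2 CPM per ovary with a surrogate variable removed, per the file name, and beside it their own log2 fold changes, p-values and signed fold changes. Reads per library are unknown.

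All 16454 genes were compared between lineages with limma 3.58.1 (R 4.3.3) with a mean-variance trend, no filter and no pseudocount. In the main fit the emptied within-lineage direction was a covariate, which leaves 3 residual degrees of freedom. Fits with 1 ovary left out, or with DEHP replicates 1 and 3 averaged, had no emptied direction and no covariate. CPM is 2 to the power of the deposited value. Lengths and shared words of 31 bases (either strand) come from GENCODE M21, and positions from RefSeq, for all 69 members. The members and lists were chosen with earlier results of these data known. Named were all plexins, neuropilins and Plxdc genes. In every other family the highest per length and the 2 smallest p where mean log2 CPM reached 1 were named. From each pathway list the 3 genes with the smallest p were named, with Flt1 and Flt4 added as the other VEGF receptors. Sema3c, Sema3e, Sema6b, Slit1, Ntn5, Dcc, Unc5d, Efnb2 and Epha10 fall outside this rule and were named after their values were seen, as was Epha7 for its level only. Alternatives were other scalings, filters, blocks and left-out ovaries.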

Additional observations from a re-analysis of the deposited data

How the results depend on the processing

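The Plxna2 difference kept its sign in all 15 alternatives and stayed past the threshold in 6. It was not past it with median centring (log2 difference -0.88, adjusted p 0.0532), quantile normalization (-0.86, 0.0924), no mean-variance trend (-0.89, 0.342), DEHP replicates 1 and 3 averaged (-0.89, 0.077), and the replicate block without (-0.89, 0.0731) and with the covariate (-0.89, 0.149); the cause was not tested. The fits with DEHP replicates 1 and 3 averaged or with 1 ovary left out had no covariate. Leaving out 1 ovary gave -0.96 to -0.82. The count of members called was 1, and 0 wherever Plxna2 lost its call, also when 1 ovary was left out (0 to 1). The 7 genes called in the whole table became 3 with median centring, 3 with quantile normalization, 1 with no trend and 20 without the covariate. Without 1 ovary, and so also without the covariate, 2 to 35 were called, to be read beside those 20. Among these counts were 4 without control replicate 2, 2 without control replicate 3 and 35 without DEHP replicate 2. Deviations of same-numbered ovaries of both lineages had correlations of -0.327, -0.00343 and -0.198 across genes, and those of differently numbered ovaries -0.211 to 0.444. These values were taken after the surrogate variable was removed, so they cannot decide whether ovaries were paired by number. The main fit took no pairing, and under the replicate block 6 genes were called. Of 51 other named members (without Epha7), 0 were called in any alternative. Of these 51, 21 changed sign in at least 1 alternative, the largest at 0.187 in size. With log2(CPM + 1) the differences of Unc5d and Epha10 shrank to 0.34 and -0.39. With the longest transcript as length, 55 of the 69 members took another rank by level, by at most 10 places: Nrp1 went from 21 to 11, Robo1 from 15 to 9, Sema5a from 4 to 1 and Plxna2 from 13 to 14. Without the most abundant gene of each list, a check chosen after seeing the data, 3 and not 5 marker lists had sums without overlap. With 3 ovaries per lineage and unknown depth, members under 1 CPM limit what can be seen.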
